A study of Homo sapiens with 2 samples.

Results

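Genes that detect foreign or misplaced RNA and DNA inside cells, together with the adaptors, kinases and brakes of that detection, were compared in MDA-MB-231, a human cell line from a triple-negative breast cancer. The genes were taken by symbol: a list of 37 symbols, 2 of which are other names of genes already on it, matched 35 of the 20289 genes in the deposited table. The series holds 2 libraries of poly(A) RNA, 1 from cells given a negative control siRNA (the control library, 23287817 counts) and 1 from cells given an siRNA against the long non-coding RNA USP30-AS1 (the knockdown library, 19569214 counts). The labels give no siRNA sequence, dose or time. How far USP30-AS1 was silenced is not shown, since its own level was not analysed here. Neither group has a replicate, so no test between them was possible, and every difference below describes these 2 libraries.

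Cells recognise nucleic acids in the wrong place through separate receptors for RNA and for DNA. In the RNA arm, the helicases RIG-I and MDA5 bind RNA in the cytosol and signal through MAVS on mitochondria, and TLR3, TLR7 and TLR8 bind RNA in endosomes. In the DNA arm, cGAS binds cytosolic DNA and makes a cyclic dinucleotide that activates STING, and TLR9 binds DNA in endosomes. Both arms meet at TRAF ligases and at the kinases TBK1 and IKK-epsilon, which activate interferon regulatory factors. Of the brakes compared here, ADAR edits RNA, and SKIV2L, ZC3HAV1 and TREX1 act in the decay of RNA or DNA. NLRX1 is reported to restrain MAVS signalling.

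The sensor pathway genes lay close to their control levels: by log2 ratio none reached 2-fold in either direction, although NLRX1 lay next to that line. Of the 35 genes, 30 had a mean of at least 50 counts and were compared, 3 (TLR7, TLR8 and TLR9) had fewer, and 2 (AIM2 and ZBP1) had 0 counts in both libraries. A log2 ratio here is the log2 of knockdown over control CPM (counts scaled to library size), after TMM scaling of the libraries and with 0.5 CPM added to both, and 2-fold means a log2 ratio of at least 1 in size. Among all 11530 compared genes, 1.55% were higher by this rule in the knockdown library and 1.60% were lower, against 0 and 0 of the 30. At 1.5-fold, 2 of the 30 were higher (CGAS and AZI2), where 6.10% of all genes were, and 1 was lower (NLRX1), where 7.04% were. These shares are near the background. In FPKM, 1 was higher (CGAS) and 3 were lower (NLRX1, DHX58 and TBKBP1), and by library totals alone 1 was higher (CGAS). Shares of all genes under these other settings are not given, so these counts have no background beside them. The median log2 ratio of the 30 was 0.03 and that of all genes 0.00, and the median size of the ratio was 0.23 in both. The 95% counting interval of the fold left out 1 for 18 of the 30 (12 higher, 6 lower), and for 64.54% of all genes. These intervals cover counting error only.

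**Figure D1:**
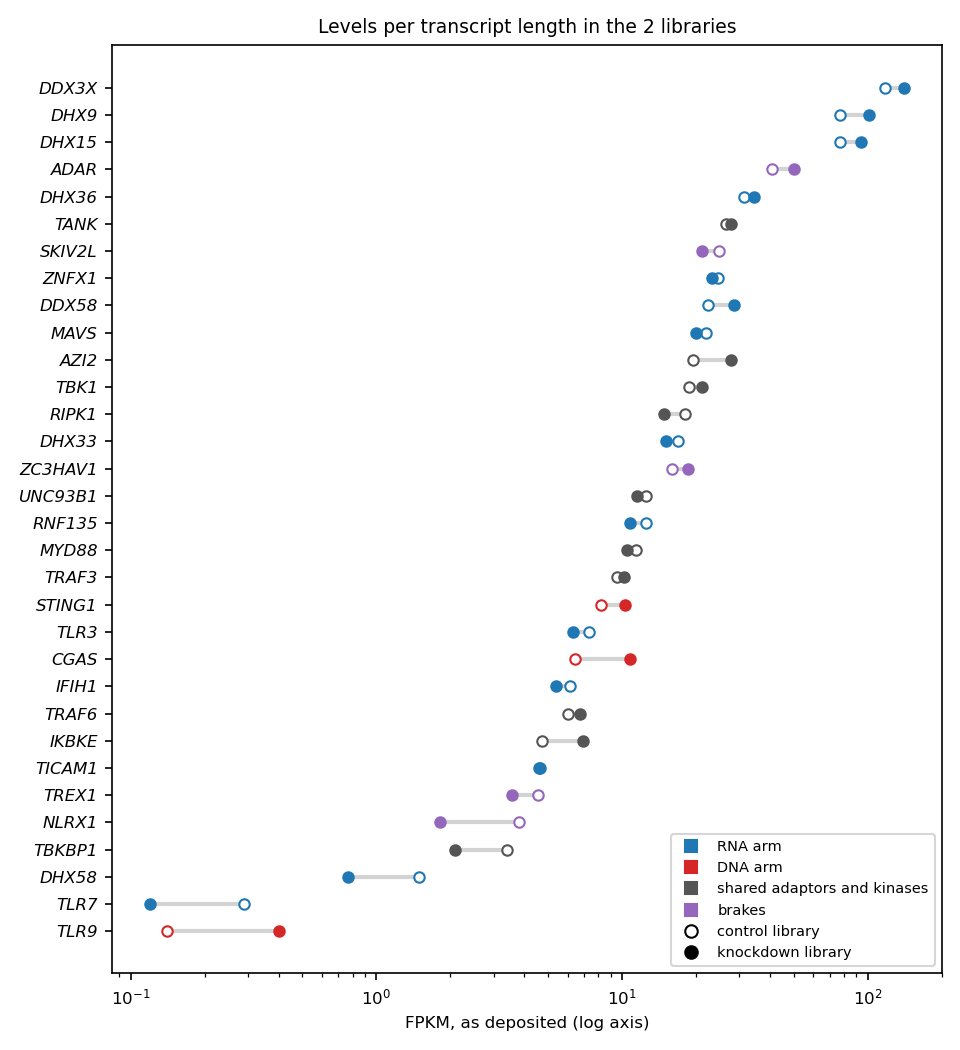
Deposited FPKM (log axis) of the 32 sensor pathway genes above 0 in both libraries, ordered by the control level; open circles are the control and filled circles the knockdown library, 1 library each, with no error bar. Levels run from 117.69 FPKM for DDX3X to 0.14 for TLR9 in the control library, and the largest gaps among genes above 1 FPKM in both are those of NLRX1, CGAS and TBKBP1.

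Levels differed far more between the genes than between the libraries. In FPKM, the deposited level per transcript length and library depth, DDX3X stood highest, at 117.69 in the control library against 140.91 after knockdown. The general RNA helicases DHX9 (77.34 and 101.68) and DHX15 (76.84 and 93.64) came next, followed by the RNA editing enzyme ADAR (40.63 and 50.09). The 10 adaptors, ligases, kinases and scaffolds that both arms share ranged from 3.40 (TBKBP1) to 26.57 (TANK) FPKM in the control library. The median over the 13 compared genes of the RNA arm was 21.91 FPKM in the control library, whereas the DNA arm had 2 compared genes, STING1 at 8.21 and CGAS at 6.45. The RNA arm includes 6 helicase co-sensors, whose median was 54.16 FPKM. Its other 7 compared genes ran from 1.49 (DHX58) to 22.37 (DDX58) FPKM in the control library, a range that holds STING1 and CGAS. STING1, TLR3, CGAS and IFIH1 stood close together there, from 8.21 down to 6.15 FPKM, and the spread between cultures that would order them was not measured.

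The 3 cytosolic RNA receptors did not share a direction. DDX58, which encodes RIG-I, the receptor of short RNA with a triphosphate end, had 2243 counts in control cells and 2438 after knockdown; pairs of counts below are in this order. Scaled to library size that was 1.34-fold higher in the knockdown library (1.26 to 1.42; log2 ratio 0.42). IFIH1, which encodes MDA5, the receptor of long double-stranded RNA, had 477 and 355 counts and a log2 ratio of -0.12, with a fold interval (0.949 to 1.26 lower) that held 1. DHX58 encodes LGP2, a relative that binds RNA but lacks the signalling domain, and it had only 70 and 39 counts. It was 1.46-fold lower with a wide interval (0.972 to 2.22), and its log2 ratio was -0.45 in counts and -0.94 in FPKM. Per length, DDX58 stood 3.64 times as high as IFIH1 in the control and 5.35 times in the knockdown library. DDX58 is annotated at chr9:32455705-32526324, IFIH1 at chr2:162267079-162318703 and DHX58 at chr17:42101404-42112733, all on the minus strand (GRCh38).

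The promoters of DDX58, IFIH1 and TLR3 are shown because these receptors are known as interferon-inducible. DDX58 was higher in the knockdown library, while the fold intervals of IFIH1 and TLR3 held 1. Each line gives 250 bases before and 50 after the gene's start from RefSeq (GRCh38.p14), with matches to the core of the interferon-stimulated response element in capitals (GAAANNGAA, searched on both strands).
DDX58, chr9:32526147-32526446, minus strand: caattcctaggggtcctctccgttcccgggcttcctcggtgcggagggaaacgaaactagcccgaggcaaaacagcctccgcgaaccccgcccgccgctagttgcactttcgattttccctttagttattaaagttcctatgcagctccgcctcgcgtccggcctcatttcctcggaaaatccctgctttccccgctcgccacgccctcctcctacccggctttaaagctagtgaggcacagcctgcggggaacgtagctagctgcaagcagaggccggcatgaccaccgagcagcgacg
IFIH1, chr2:162318635-162318934, minus strand: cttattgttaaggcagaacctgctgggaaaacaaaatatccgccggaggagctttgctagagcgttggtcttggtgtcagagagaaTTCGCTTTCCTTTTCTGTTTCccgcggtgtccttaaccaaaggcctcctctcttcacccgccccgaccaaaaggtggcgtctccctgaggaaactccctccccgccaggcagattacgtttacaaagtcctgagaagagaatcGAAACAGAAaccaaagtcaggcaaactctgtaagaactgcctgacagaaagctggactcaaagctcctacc
TLR3, chr4:186068906-186069205, plus strand: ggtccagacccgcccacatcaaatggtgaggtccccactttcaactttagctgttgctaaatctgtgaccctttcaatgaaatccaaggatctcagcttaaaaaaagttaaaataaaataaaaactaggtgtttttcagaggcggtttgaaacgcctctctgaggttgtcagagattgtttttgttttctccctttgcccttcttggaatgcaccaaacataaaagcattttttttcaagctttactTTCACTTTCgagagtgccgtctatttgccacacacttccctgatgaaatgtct
IFIH1 held 4 matches, of which 3 form a chain where each overlaps the next, with first bases at -164, -158 and -152 from the start, and the other at -21. TLR3 held 1 match, at -3, and the DDX58 window held none of this exact form. Promoters were found for 26 of the 35 genes, and 6 of them (AIM2, DHX15, IFIH1, MYD88, TLR3 and TLR8), 23.08%, held the core, against 8.11% of all 35116 promoters. CGAS, STING1 and DHX58 were among the genes without a promoter sequence and were not searched. The GAS core (TTCNNNGAA, which reads alike on both strands) was in 3 of the 26 (MYD88, TLR3 and ZC3HAV1), 11.54%, and in 7.66% of all. The compared genes with the interferon core lay on both sides of 0: DHX15 had a log2 ratio of 0.33, MYD88 -0.06, TLR3 -0.08 and IFIH1 -0.12. The fold intervals of MYD88, TLR3 and IFIH1 held 1. A match is a run of letters and not a shown binding site. The search fixed the spacing inside the core, so a window without a match, such as that of DDX58, can still hold a variant of the element.

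Transcripts of MAVS and RNF135, which act directly with the RNA receptors, were close to their control levels. MAVS, the mitochondrial adaptor of RIG-I and MDA5, had 5977 and 4590 counts, 1.06-fold lower (1.02 to 1.10; log2 ratio -0.08). RNF135, also called Riplet, a ubiquitin ligase that activates RIG-I, had 546 and 411 counts and a log2 ratio of -0.11 (fold 1.08 lower, 0.948 to 1.23). In contrast NLRX1, a mitochondrial member of the NOD-like receptor family reported to restrain MAVS signalling, had 323 and 131 counts. It was 2.0-fold lower (1.63 to 2.47), the lowest ratio of the 30 genes and at percentile 1.91 of all compared genes. Its log2 ratio was -0.95 with the added 0.5 CPM, just short of the 2-fold rule, and -1.06 in FPKM, past it. Per length, MAVS stood 5.78 times as high as NLRX1 in the control library and 11.1 times in the knockdown library. NLRX1 is annotated at chr11:119166568-119184016 on the plus strand and its exons overlap those of no other annotated gene.

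**Figure D2:**
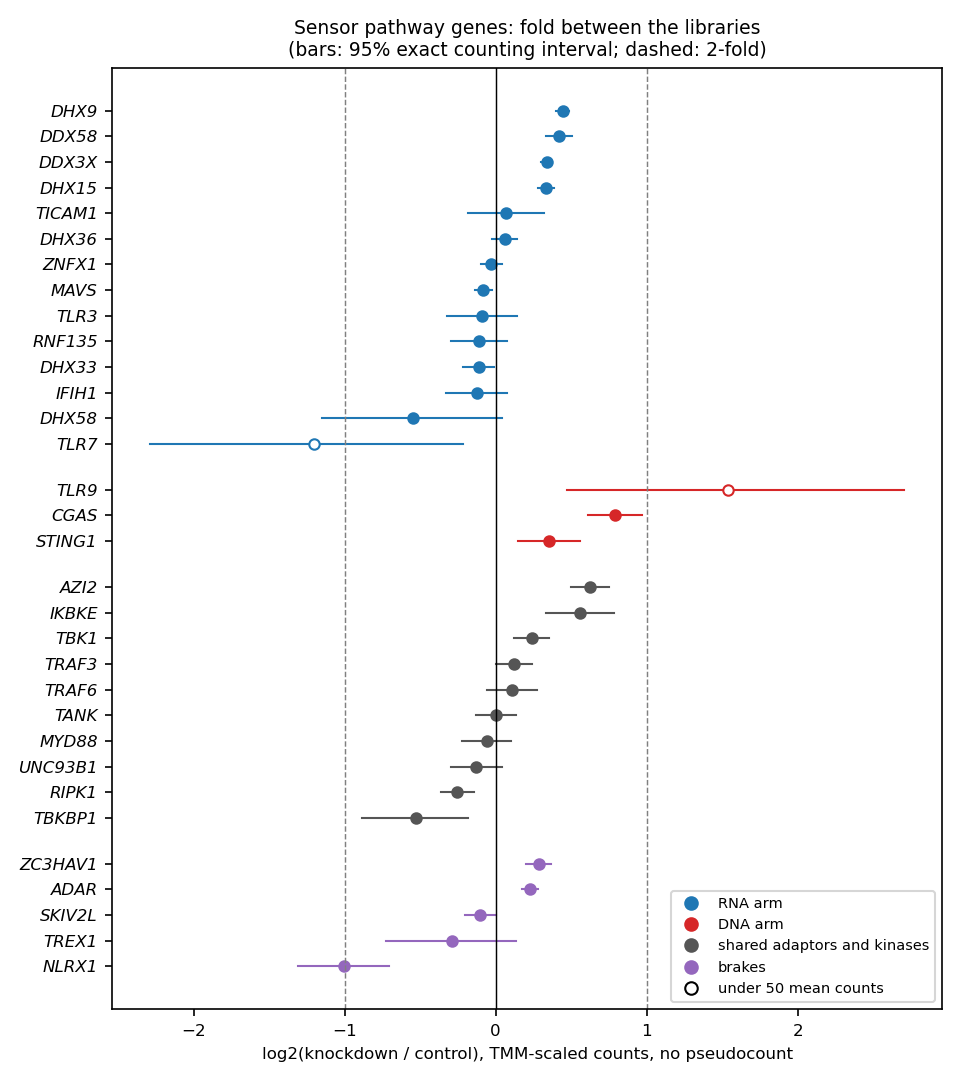
Fold between the libraries for the 32 sensor pathway genes with counts in both, as log2 of knockdown over control TMM-scaled counts without a pseudocount; bars are 95% exact counting intervals, open circles mark genes under 50 mean counts and dashed lines mark 2-fold. NLRX1 sits at the lower 2-fold line, CGAS, AZI2 and IKBKE sit above 0 with intervals that leave out 0, and TLR7 and TLR9 have the widest intervals.

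Endosomal receptors were scarce apart from TLR3. TLR3, the receptor of double-stranded RNA, had 361 and 276 counts (log2 ratio -0.08), and its adaptor TICAM1, known as TRIF, had 286 and 244 (log2 ratio 0.07). TLR7, a receptor of single-stranded RNA, had 34 and 12 counts, 2.30-fold lower with an interval of 1.16 to 4.88. TLR9, the DNA receptor, had 11 and 26 counts, 2.91-fold higher with an interval of 1.39 to 6.52. Of the exonic bases of TLR9, 86.33% also belong to an overlapping gene model on the same strand, so the source of those few reads is uncertain. TLR8 had 3 counts in the control library and 0 in the knockdown library, both at or under the limit that a count of 0 allows (3 counts, or 0.127 and 0.156 CPM), so no fold is given. UNC93B1, the chaperone that carries these receptors to endosomes, and MYD88, the adaptor of TLR7, TLR8 and TLR9, were both present. UNC93B1 had 671 and 499 counts (log2 ratio -0.13) and MYD88 702 and 547 (log2 ratio -0.06).

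TLR7, TLR8 and TLR9 are best known from leukocytes, and most leukocyte markers were low or missing in both libraries. Of 14 markers 1 reached 50 mean counts and 7 had 0 counts in both libraries, and PTPRC, which encodes CD45, had 2 and 0. CD14 (40 and 42 counts) and CSF1R (26 and 21) were low but present, at counts of the same order as those of TLR7 and TLR9. The summed level of the 14 markers was 47.9 CPM for the control and 63.9 CPM for the knockdown, nearly all of it from CD68 (1060 and 1160 counts), a lysosomal protein that many cell types make. The line's own character was visible in VIM, the mesenchymal filament vimentin (36576 and 43558 counts), and in PGR, the progesterone receptor gene, at 0 in both libraries, with ESR1, the estrogen receptor gene, at 9 and 13 counts. All 8 mesenchymal markers of the line reached 50 mean counts, as did 3 of 6 hormone receptor and luminal markers, ERBB2 (1270 and 1127 counts), GATA3 (120 and 77) and FOXA1 (129 and 82). Of 9 fibroblast and endothelial markers 3 did, with a summed level of 48.9 and 35.8 CPM, and DCN and LUM were at 0 in both. Those 3 were PDGFRB (654 and 322 counts), COL1A1 (170 and 213) and PECAM1 (226 and 128), and CDH5, an endothelial cadherin, had 91 and 8. The part of other cells in the values was not tested. In bulk RNA, fewer cells with a transcript and less of it per cell cannot be told apart.

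Helicases reported as co-sensors of RNA split between 3 abundant genes that were higher and 3 that were not. DHX9, which unwinds double-stranded RNA and DNA-RNA hybrids, had 8092 and 8940 counts, 1.36-fold higher (1.32 to 1.40; log2 ratio 0.44). DDX3X, a helicase of translation initiation that also binds TBK1 pathway kinases, had 10442 and 10715 counts (1.26-fold higher, 1.23 to 1.30). DHX15, a splicing helicase, had 5365 and 5494 counts (1.26-fold higher, 1.21 to 1.31). DHX36, which resolves G-quadruplexes, lay at a log2 ratio of 0.06 (2596 and 2197 counts). ZNFX1, a helicase that binds viral RNA at mitochondria, lay at -0.03 (4085 and 3255 counts), and DHX33, reported to bind double-stranded RNA, at -0.11 (1825 and 1371). The differences of DHX9, DDX3X and DHX15 exceed their counting error, yet each is under 1.5-fold, where 86.86% of all compared genes lie.

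Both compared genes of the DNA arm were higher in the knockdown library. CGAS, the DNA receptor that makes the cyclic dinucleotide, had 445 and 626 counts. It was 1.73-fold higher (1.53 to 1.96; log2 ratio 0.78, and 0.74 in FPKM), the largest ratio of the 30 genes and at percentile 96.9 of all compared genes. STING1, its adaptor in the endoplasmic reticulum, had 384 and 398 counts, 1.28-fold higher (1.11 to 1.47; log2 ratio 0.34). No ratio could be given for AIM2, the inflammasome receptor of DNA, or ZBP1, the receptor of nucleic acids in the Z form, which had 0 counts in both libraries, and TLR9, given above, had under 50. TREX1, the exonuclease that removes cytosolic DNA upstream of cGAS, had 116 and 77 counts (rounded), 1.22-fold lower with an interval (0.910 to 1.65) that held 1. All exonic bases of TREX1 lie within exons of ATRIP on the same strand, and ATRIP itself had a log2 ratio of -0.44 (356 and 211 counts), so their reads can be split between them. Per length, CGAS stood at 0.786 times the level of STING1 in the control library and 1.05 times in the knockdown library. CGAS is annotated at chr6:73413515-73452276 on the minus strand, and 4.33% of its exonic bases overlap DDX43 on the other strand, which had 0 counts in both libraries.

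Set side by side, the RNA arm had a median log2 ratio of -0.03 over 13 compared genes, 6 of them above 0 and 7 below, from -0.45 (DHX58) to 0.44 (DHX9). In the DNA arm the median was 0.56, which is the midpoint of CGAS and STING1. The difference of the medians was -0.59, RNA minus DNA. It rests on 2 genes of the DNA arm, genes are not replicates, and STING1 at 0.34 lies inside the range of the RNA arm while CGAS lies above it. With brakes counted in the arm they act on, the difference was -0.37, and with the helicase co-sensors left out of the RNA arm it was -0.64. It was -0.83 at a floor of 10 mean counts and -0.27 without carriers of the 3' UTR words described below, which leaves STING1 alone in the DNA arm.

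**Figure D3:**
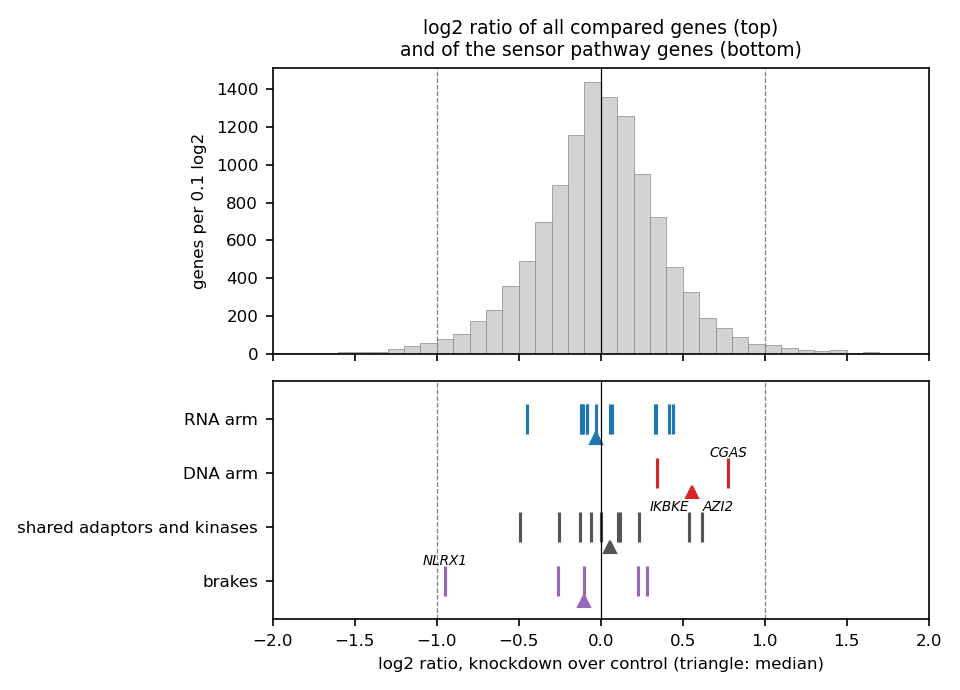
Top, number of compared genes per 0.1 of log2 ratio (24 of the 11530 genes lie beyond the plotted range); bottom, each tick is 1 of the 30 compared sensor pathway genes by arm, with triangles at the medians and dashed lines at 2-fold. The RNA arm straddles 0, CGAS and STING1 lie above it, and NLRX1 is the lowest tick.

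Downstream of both arms, the kinases and their scaffolds went in different directions. IKBKE, the inducible kinase IKK-epsilon, had 301 and 360 counts, 1.47-fold higher (1.26 to 1.72; log2 ratio 0.54). TBK1, its constitutive relative, had 1283 and 1229 counts, 1.18-fold higher (1.09 to 1.28; log2 ratio 0.24). For TBK1, 14.74% of the exonic bases are shared with an antisense gene model, and whether counting used the strand is not known from the sources used here. Per length, TBK1 stood 3.96 times as high as IKBKE in the control and 3.06 times in the knockdown library. RIPK1, a kinase that joins TLR3 and death receptor signalling to NF-kB, had 1739 and 1185 counts and was 1.19-fold lower (1.11 to 1.28; log2 ratio -0.25).

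The 3 scaffolds that tie TBK1 and IKBKE to their receptors showed one higher, one level and one lower value. AZI2, also called NAP1, had 949 and 1190 counts, 1.54-fold higher (1.42 to 1.68; log2 ratio 0.62). TANK, which also binds TRAF proteins, had 1027 and 837 counts and a log2 ratio of 0.00. TBKBP1, also called SINTBAD, had 192 and 108 counts, 1.44-fold lower (1.14 to 1.85; log2 ratio -0.49, and -0.70 in FPKM). The AZI2 value is uncertain, because 55.44% of its exonic bases overlap exons of CMC1 on the opposite strand and its deposited counts were not whole numbers, as was also so for DDX58 and TREX1. CMC1 had 637 and 427 counts and a log2 ratio of -0.27, opposite in sign to AZI2. The TRAF ligases were near level, with TRAF3 at 1244 and 1098 counts (log2 ratio 0.12) and TRAF6 at 642 and 563 (log2 ratio 0.11).

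Of the brakes that act on RNA, ADAR and ZC3HAV1 were higher and SKIV2L was close to its control level. ADAR, which converts adenosine to inosine in double-stranded RNA and so hides it from MDA5, had 5836 and 5555 counts, 1.17-fold higher (1.13 to 1.22; log2 ratio 0.23). ZC3HAV1, the antiviral protein ZAP that targets CpG-rich RNA for decay, had 2302 and 2277 counts, 1.22-fold higher (1.15 to 1.29; log2 ratio 0.28). SKIV2L, the helicase of the SKI complex that feeds cytosolic RNA to the exosome, had 1858 and 1407 counts, 1.07-fold lower (1.00 to 1.15; log2 ratio -0.10). Over all 5 brakes, NLRX1 and TREX1 included, the median log2 ratio was -0.10.

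Other genes of the same pathways were taken from lists of pathway members, without the genes above. Among all compared genes 1.55% were at least 2-fold higher and 1.60% lower. At these shares, 0 or 1 gene per list says little about the list. Modifiers of the RNA receptors had a median log2 ratio of 0.05 over 20 compared genes, with 0 past 2-fold. The largest ratios were those of the ubiquitin ligase MEX3C (0.63; 1.56-fold higher, 1.40 to 1.74), the co-receptor ZCCHC3 (-0.57) and the stress granule protein G3BP1 (0.56). Regulators of cGAS and STING and enzymes of DNA removal had a median of 0.03 over 24 compared genes, with 1 lower by 2-fold or more and 0 higher. That gene was the palmitoyltransferase ZDHHC1, at 152 and 43 counts (2.87-fold lower, 2.04 to 4.13), and next came the cGAS cofactor PQBP1 (0.46) and the adaptor TOLLIP (-0.42). In the list of TLR trafficking and signalling the median was 0.01 over 26 compared genes, with 1 at least 2-fold higher. This was TLR4, the lipopolysaccharide receptor, at 791 and 1648 counts (2.56-fold higher, 2.35 to 2.79), followed by TLR6 (287 and 468 counts, log2 ratio 0.98) and the kinase IRAK2 (0.53). The SKI complex, exosome and ZAP cofactors had a median of 0.18 over 19 compared genes, led by the exosome subunit EXOSC1 (0.89), the ribosome rescue factor HBS1L (0.82) and the exonuclease DIS3L (-0.56), with 0 past 2-fold.

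Genes that act after detection included OAS1, OAS2, IRF7 and IRF9, each at least 2-fold lower in the knockdown library. Among effectors of double-stranded RNA, 2 of 11 compared genes were at least 2-fold lower and 0 higher, against 1.60% and 1.55% of all compared genes, with a list median of 0.04. These were OAS2 (330 and 114 counts, 2.35-fold lower, 1.90 to 2.94) and OAS1 (970 and 357 counts, 2.21-fold lower, 1.95 to 2.50), synthases that activate RNase L. In the list of transcription factors and outputs, 1 of 12 compared genes was at least 2-fold lower, against 1.60% of all, IRF7, which amplifies interferon transcription, with 415 and 99 counts (3.41-fold lower, 2.73 to 4.28), and the median was 0.01, with IRF5 at 0.42 and IFIT2 at 0.27. Among genes that carry the interferon signal to ISGF3, IRF9 had a log2 ratio of -1.23, STAT2 -0.72, IFNAR2 -0.69, TYK2 -0.25, JAK1 -0.23 and IFNAR1 0.14. TYK2 was at 0.14 in FPKM, opposite in sign. Of the 7 compared genes of this list 1, IRF9, was at least 2-fold lower, against 1.60% of all compared genes.

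The pathway annotation that the authors deposited with the table gave medians near 0, unlike the ISGF3 genes named above, where all but IFNAR1 lay below 0 in counts. Its RIG-I-like receptor pathway held 71 genes, 15 of them among the 35, and had a median log2 ratio of 0.09 over 49 compared genes (0.08 over the 34 that remained without the 35). The cytosolic DNA-sensing pathway held 64 genes, 11 of them among the 35, with a median of 0.13 over 37 compared genes and 0.11 over the 28 others. In the Toll-like receptor pathway, with 11 of its 108 genes among the 35, the median was -0.01 over 63 compared genes.

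Several sensor genes carry in their 3' UTR words of 7 bases that an earlier look at these same libraries picked for their ratios, AACTCCA or ACTCCAA (the low word) and CCTAAGA or CTAAGAA (the high word). The direction of the words over all genes is therefore set by that choice and is given as a description. Over all compared genes, carriers of only the low word had a median log2 ratio of -0.18 (1445 genes), carriers of only the high word 0.15 (1437 genes), genes with both -0.02 (745 genes) and genes with neither 0.01 (7785 genes). The median 3' UTR was 2430 bases long for carriers of only the low word, 2717 for only the high word, 4809 for both and 1005 for neither. Of the 30 sensor pathway genes 19 carry neither in their longest annotated 3' UTR, 3 the low word only (DHX33, TLR3 and ZC3HAV1), 4 the high word only (AZI2, MYD88, RIPK1 and TRAF3) and 4 both (ADAR, CGAS, DHX36 and MAVS). Over all 11412 compared genes with a 3' UTR, 68.2% carry neither, 12.7% the low word only, 12.6% the high word only and 6.53% both. Carrying a word is therefore not particular to the sensor pathway genes. Of the genes past 1.5-fold, AZI2 carries the high word, CGAS both words and NLRX1 neither. The 29-base stretches around the words are shown for CGAS (its high word) and AZI2, the highest of the 30, for RIPK1, the lowest carrier of the high word, and for DHX33 and ZC3HAV1, the lowest and highest carriers of the low word alone. Each is the transcript strand from GENCODE 29 (GRCh38), with the word in capitals.
CGAS, high word, chr6:73425189-73425217, minus strand: tttagaaagatCTAAGAActagagtcacc
AZI2, high word, chr3:28323820-28323848, minus strand: agctccatattCTAAGAAtctgaaatatg
RIPK1, high word, chr6:3113971-3113999, plus strand: cactgtaggctCTAAGAAccacgtgcagt
DHX33, low word, chr17:5441383-5441411, minus strand: taaatagatgcACTCCAAgcagattgcat
ZC3HAV1, low word, chr7:139046611-139046639, minus strand: tttaggggacaAACTCCAtccaggttgac
In CGAS the high word starts at base 21 of a 3' UTR of 1518 bases. RIPK1 (log2 ratio -0.25) and MYD88 (-0.06) lay below 0 with the high word, and ZC3HAV1 (0.28) lay above 0 with the low word. Among the 19 genes with neither word the median was 0.00, with 10 above 0, from NLRX1 at -0.95 to IKBKE at 0.54. The part of these words, or of 3' UTR length, in the values was not tested.

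**Figure D4:**
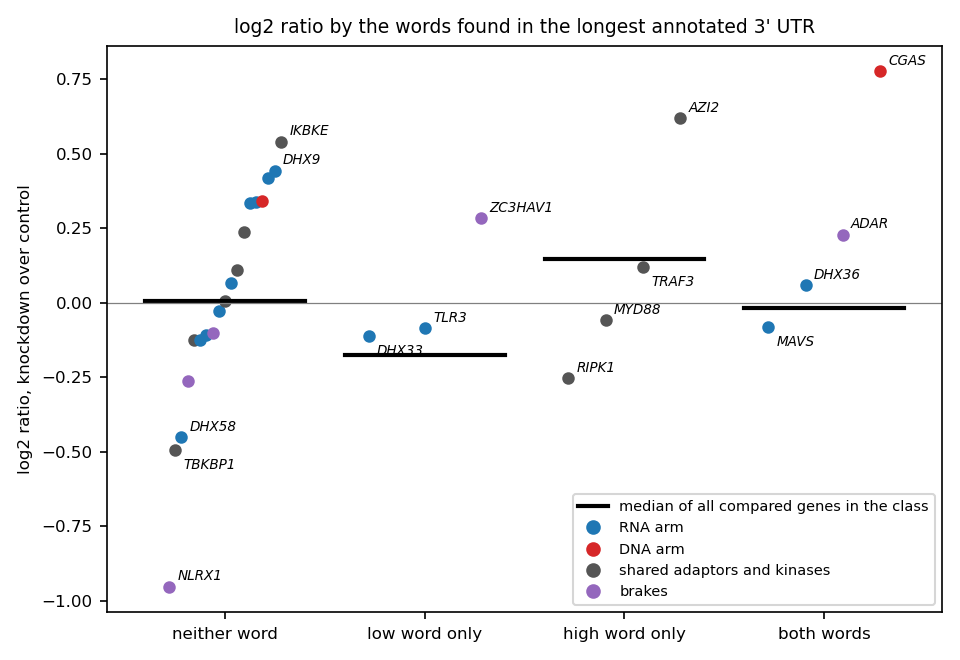
log2 ratio of the 30 compared sensor pathway genes by the words in their longest annotated 3' UTR; points are single genes coloured by arm, spread sideways in order of their ratio, and black lines are medians of all compared genes in each class. The class medians are -0.18 for the low word, 0.15 for the high word and -0.02 for both; CGAS, with both words, and AZI2, with the high word, are the highest points.

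Base composition also moved with the ratios. All compared genes were put in 5 bins of transcript GC content that hold nearly equal numbers of genes. Of the 13 sensor pathway genes in the lower 2 bins (under 45.4%), 11 lay above 0, with a median log2 ratio of 0.28. In the upper 2 bins (at least 51.5%) 4 of 14 lay above 0, with a median of -0.09. The same split over all compared genes gave 55.4% and 44.7% above 0, with medians of 0.05 and -0.05. Across the 30 genes Pearson's r between GC content and log2 ratio was -0.53 and Spearman's rho -0.47, and across 11448 compared genes r was -0.10 and rho -0.11. Expression level moved with the ratios as well. Between log2 control FPKM and log2 ratio, r was 0.44 and rho 0.42 across the 30 genes, and 0.02 and 0.07 across the 11448. These are descriptions across genes that share the same 2 libraries. The abundant helicases DHX9, DDX3X and DHX15 fall in the lower 2 bins and NLRX1, TBKBP1, DHX58 and TREX1 in the highest, while IKBKE (58.7% GC) had a high GC content and a ratio above 0, and TLR3 (37.6%) a low one and a ratio below 0. The part of base composition, or of expression level, in the values was not tested.

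**Figure D5:**
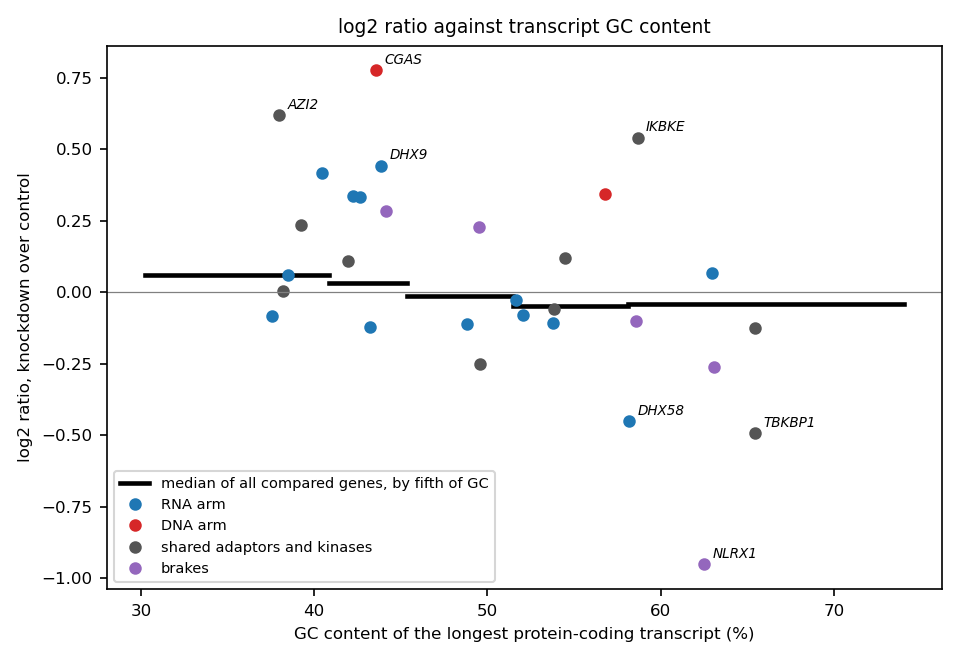
log2 ratio of the 30 compared sensor pathway genes (points, coloured by arm) against the GC content of their longest protein-coding transcript in percent. Black lines mark the median of all compared genes in each of 5 bins of GC content that hold nearly equal numbers of genes. All-gene medians run from 0.06 in the lowest bin to -0.04 in the highest, and the sensor pathway genes run in the same direction over a wider range.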

How the data were processed

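Poly(A) RNA of 1 control and 1 knockdown library was sequenced. Per the submitters' processing notes, RSEM, HISAT2, StringTie 1.3.1 and fastp 0.18.0 were used with GRCh38; the role of each, the strand setting and the annotation release are not given in the sources used here. Deposited by the authors were estimated counts per gene, not normalized, and FPKM, per the file headers a level per length of transcript and library depth. A second deposited pair of FPKM columns with 0 replaced by 0.001, the log2 fold change made from it, and p-values and FDR of a test that is not stated were not used. The knockdown columns are named Si-179 and were taken as the USP30-AS1 siRNA library from the table's own title.

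Expected counts were rounded, scaled by TMM (factors 1.017 and 0.983, edgeR 4.0.16, R 4.3.3) over the whole table and compared as log2 ratios with 0.5 CPM added. Folds carry no pseudocount and have 95% exact (Clopper-Pearson) counting intervals, which cover counting error only, as PCR copies are not independent molecules. With 1 library per group nothing was tested. Genes under 50 mean counts were not compared. The calculation was tested on simulated data. Coordinates, exons and 3' UTRs (the longest per gene, for 11412 compared genes) come from GENCODE 29, and promoters from RefSeq. The members and lists were chosen with earlier results of these data known. Every member is named, with the 3 largest ratios of each other pathway list, the ISGF3 genes (a few results are not reported here), and markers and overlap partners picked after their values were seen. Alternatives were 2 other scalings, 2 pseudocounts, 3 floors, FPKM, 3 arm definitions and removal of word carriers, and, added after seeing the data, removal of genes that share exons. The other tools were matplotlib 3.10.9, scipy 1.17.1, pandas 2.3.3 and numpy 2.4.6 in Python 3.11.15, with DESeq2 1.42.0 for size factors as an alternative.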

Additional observations from a re-analysis of the deposited data

How the results depend on the processing

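No paired analysis was possible because each group holds 1 library. The log2 ratios of the 30 compared genes kept their sign under the other settings tried (DESeq2 size factors, library totals only, 0.1 or 1 CPM added, FPKM), except TANK with library totals only. The 2-fold counts stayed at 0 apart from FPKM, where 1 gene was at least 2-fold lower. The 1.5-fold higher count was 1 with library totals only, with FPKM and without AZI2, TREX1 and TLR9, a removal chosen after seeing the data, and 0 without word carriers, which leaves 19 genes. At a floor of 10, or without one, it was 3. Of genes at least 1.5-fold lower, a floor of 10 gave 2, leaving out the floor 2, and FPKM 3. Shares of all genes under these alternatives are not given, so the counts cannot be set against a background. The median of the DNA arm was 0.34 with no floor, 0.78 with a floor of 10, 0.34 with brakes added and 0.34 without word carriers (STING1 alone). The median of the RNA arm turned from -0.03 to 0.02 at a floor of 200 and to 0.0679 without word carriers. RNA minus DNA was -0.83 with a floor of 10, -0.37 with brakes added and -0.27 without word carriers. It stayed below 0 under every alternative run, but other scalings shift both arms nearly alike and so hardly change it. The DNA arm median was CGAS, STING1 or their midpoint each time, so the constant sign restates these 2 genes. The median of all genes lay at -0.05 with library totals only and -0.04 in FPKM. With 70 and 39 counts for DHX58 and 116 and 77 for TREX1, depth limits both; no spread between cultures was measured.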
